A study of Mus musculus with 96 samples.

Results

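Voltage-gated calcium channels are built around a pore protein, and 8 of the mouse genes for that protein were followed here in nuclei of the visual cortex: Cacna1a, Cacna1b, Cacna1c, Cacna1d, Cacna1e, Cacna1g, Cacna1h and Cacna1i. They were chosen by name among the 55335 gene identifiers of the count table, and the symbols came from a GENCODE annotation of the same genome build. All 8 had 1 identifier each, and all 8 passed the filter on low counts. The questions were how much of each gene VIP interneurons hold against all nuclei of the tissue, and whether light after darkness, or Cre, changed it.

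The pore protein opens when the membrane is depolarised and lets calcium into the cell, where it triggers transmitter release, shapes firing and signals to the nucleus. Cacna1c and Cacna1d encode L-type channels, which sit mostly on cell bodies and dendrites and are known for coupling activity to transcription. Cacna1a encodes the P/Q-type, Cacna1b the N-type and Cacna1e the R-type channel, of which the P/Q- and N-types are the main calcium source for transmitter release at cortical terminals. Cacna1g, Cacna1h and Cacna1i encode T-type channels, which open at weak depolarisation and support burst firing. VIP interneurons are GABAergic cells that make vasoactive intestinal peptide and mostly inhibit other interneurons.

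The libraries measure nuclear RNA of visual cortex from mice of 3 lines, E1, E23 and E123 (Igf1-E1 fl/fl, Igf1-E23 fl/fl or Igf1-E123 fl/fl, each x VIP flp/wt), in which enhancers of the growth factor gene Igf1 carry loxP sites. At 55 to 60 days of age the mice received an adeno-associated virus with a Syn1 promoter and a Flp-dependent insert, so that VIP cells with Flp made the nuclear label mScarlet-KASH with either Cre (AAV-Syn1-fDIO-mScarlet-KASH-2a-Cre) or an inactive form, dCre (AAV-Syn1-fDIO-mScarlet-KASH-2a-dCre). Dark housing began 3 days later and lasted 10 to 12 days, and tissue was taken in the dark or after 1 h of light. All groups, controls included, carried the floxed enhancers and 1 Flp allele, and all were injected. Every group held libraries labelled female and libraries labelled male. VIP nuclei and total nuclei were sorted separately, 50 to 100 per library, and few of the total nuclei can carry the virus-driven protein. For each fraction, E1 gave 3 dark dCre, 5 light dCre, 5 dark Cre and 4 light Cre libraries, every E23 group had 4, and the E123 groups had 4 apart from dark Cre with 3, in all 96 libraries and 24 groups. Total counts ran from 1559883 to 9122515 per library.

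The genome around the start sites is shown for Cacna1e and Cacna1b, the members with the smallest p-values below and above total nuclei, and for Cacna1d, which also differed after light. The windows are RefSeq's, on GRCm38.p6, and hold 250 bases before and 50 after an annotated start, 5′ to 3′ on the gene's strand, with GC boxes (GGGCGG or its reverse complement, overlapping matches counted) in capitals. The Cacna1b window lies at chr2:24763103-24763402 and the Cacna1d window at chr14:30353437-30353736, both on the minus strand. The Cacna1e window lies at chr1:154725871-154726170, minus strand. The Cacna1d and Cacna1e windows lie at starts inside the longer GENCODE genes.
Cacna1b: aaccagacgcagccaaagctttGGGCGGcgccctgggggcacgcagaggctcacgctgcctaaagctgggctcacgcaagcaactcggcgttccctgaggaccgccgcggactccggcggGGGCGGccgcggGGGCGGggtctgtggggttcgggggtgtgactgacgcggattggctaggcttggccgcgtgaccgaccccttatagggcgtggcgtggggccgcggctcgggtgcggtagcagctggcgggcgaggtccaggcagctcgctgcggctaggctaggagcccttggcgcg
Cacna1e: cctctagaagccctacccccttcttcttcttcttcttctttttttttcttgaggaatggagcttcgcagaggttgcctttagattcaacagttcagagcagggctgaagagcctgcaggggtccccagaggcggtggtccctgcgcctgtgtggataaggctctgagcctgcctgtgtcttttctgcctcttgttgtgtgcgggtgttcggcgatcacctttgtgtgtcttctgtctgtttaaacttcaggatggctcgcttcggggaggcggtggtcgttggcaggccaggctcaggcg
Cacna1d: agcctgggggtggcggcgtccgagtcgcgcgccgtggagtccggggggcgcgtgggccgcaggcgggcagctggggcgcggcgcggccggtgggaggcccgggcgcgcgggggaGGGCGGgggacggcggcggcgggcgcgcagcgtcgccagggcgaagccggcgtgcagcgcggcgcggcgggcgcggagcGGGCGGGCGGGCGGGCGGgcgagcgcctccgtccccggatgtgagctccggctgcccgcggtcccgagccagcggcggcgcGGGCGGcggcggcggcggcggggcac

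The Cacna1b window held 3 GC boxes and 35 CpG dinucleotides at 72.33% GC. The printed Cacna1d window held 6 and 63 at 87.33%. Its other window, near the outer start of the gene (chr14:30491107-30491406), held no GC box and 4 CpG at 40.33%. The Cacna1e window held no GC box and 11 CpG at 55.33%. A GC box was present in 35.7% of all 32851 RefSeq windows, whose median was 52.67% GC and 7 CpG. The cyclic AMP response element (TGACGTCA, in 1.79% of all windows) and the AP-1 motif (TGANTCA, in 7.81%), searched on both strands, were in none of the 8 windows found for 5 members, Cacna1b, Cacna1c, Cacna1d, Cacna1e and Cacna1i. A TATA motif (TATAAA, in 13.6%) was found only in that other window of Cacna1d, 3 times.

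VIP nuclei carried the markers of their label. Vip stood at 5359 ± 3291 CPM (counts scaled to a common library size by TMM in edgeR; SD, n = 48) in VIP and 44.6 ± 49.2 in total nuclei, and all 8 VIP markers were higher by edgeR. The excitatory marker Slc17a7 stood at 16.1 ± 12.0 CPM in VIP and 67.3 ± 17.3 in total nuclei, while Camk2a, on the same list, stood at 660.2 ± 341 and 799.8 ± 133. The mural marker Pdgfrb was higher in VIP nuclei (4.07 ± 3.95 and 1.23 ± 2.30 CPM). Oligodendrocyte markers summed to 278 ± 333 and 1204 ± 775. Igf1, the gene whose enhancers were floxed, differed between Cre and dCre VIP nuclei by −0.61 (log2; edgeR adjusted p = 0.000949), lower with Cre. Libraries also differed in a length index, the mean log2(CPM + 1) of 2325 protein-coding genes of at least 100 kb minus that of 3011 under 10 kb. In VIP nuclei of dCre mice kept dark it reached 3.87 ± 0.93 (3 libraries) for E1 and 3.81 ± 0.68 (4) for E123, and after light 3.32 ± 0.15 (4) for E123, as mean ± SD, against group means of 2.03 to 2.91 in the other 9 VIP groups. All 8 members except Cacna1g and Cacna1h are in the long class, so the index stands beside each result below that it moves with.

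VIP nuclei held a different mix of pore genes from the tissue as a whole. Cacna1b, Cacna1c, Cacna1d, Cacna1g and Cacna1h were higher in VIP nuclei, Cacna1e and Cacna1a were lower, and Cacna1i did not pass the test. The count was therefore 5 higher and 2 lower of 8, where 14.8% of the 22926 genes tested were higher and 20.7% lower at an edgeR adjusted p under 0.05. The median difference of the 8 members was 0.47 (log2) and that of all genes −0.11. On library sizes from total counts alone, the median of all genes was −0.24, and the members split into 4 higher and 3 lower, with Cacna1c lost (adjusted p = 0.0894) and Cacna1i called lower (0.0211). Levels are relative to all other RNA of a library, and in bulk pools fewer cells of a type and less RNA per cell cannot be told apart. The libraries are numbered as replicates, and the p-values measure the spread between them. Where groups are said below not to overlap, the share of all genes without overlap was not computed.

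**Figure D1:**
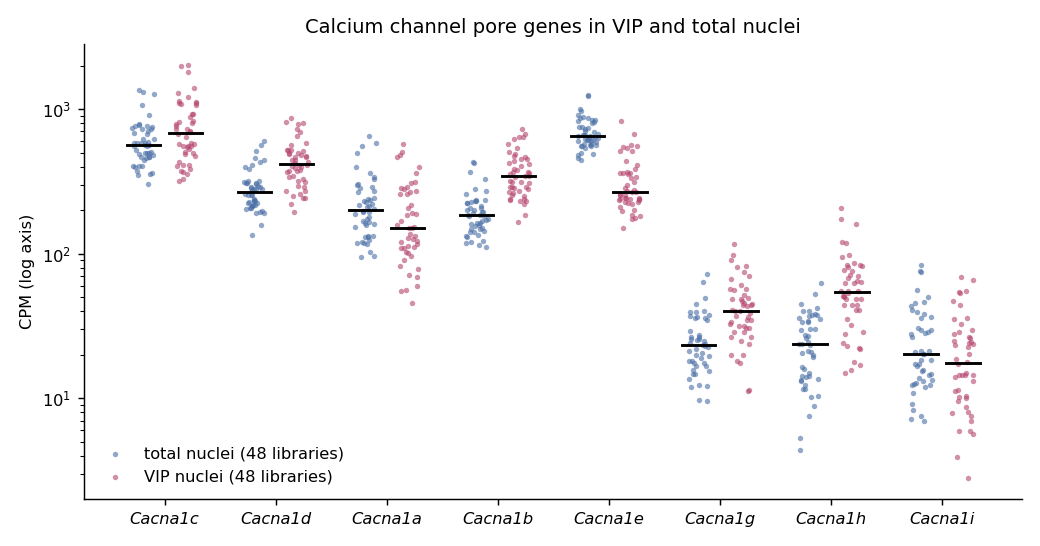
Level of each pore gene in CPM (log axis) in the 48 total and 48 VIP libraries; each point is 1 library and each bar the median. Cacna1e medians were 651 CPM in total and 267 in VIP nuclei, and Cacna1b medians 185 and 345.

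Cacna1e, the R-type gene (chr1:154390731-154884501, minus strand, mm10), showed the largest drop. Total libraries held 445 to 1243 CPM with a median of 651, and VIP libraries 152 to 822 CPM with a median of 267. In 40 of 48 VIP libraries the level was below that of every total library. The difference was −1.16 ± 0.073 (log2 ± SE), 0.447 of the total level, with an edgeR adjusted p of 9.5e-26. It was negative in all 12 conditions, from −1.71 in light Cre E23 to −0.51 in dark dCre E123 mice, and all VIP libraries lay below all total libraries in 9 of the 12. By condition, means ± SD in total and then VIP nuclei were as follows. E1 dCre mice held 1033 ± 353 and 441 ± 204 CPM in the dark and 611 ± 95.5 and 321 ± 137 after light. E1 Cre mice held 579.9 ± 68.9 and 237 ± 42.6 CPM in the dark and 671 ± 133 and 236 ± 87.4 after light. The E1 total mean was highest in dark dCre mice, where 2 of 3 libraries had a high length index. In E23 dCre mice the values were 513 ± 49.8 and 278 ± 91.3 CPM in the dark and 688 ± 72.7 and 234 ± 40.1 after light. In E23 Cre mice they were 677 ± 196 and 252 ± 55.6 CPM in the dark and 771 ± 57.3 and 236 ± 18.5 after light. E123 dCre mice held 874 ± 155 and 613 ± 141 CPM in the dark and 773 ± 114 and 435 ± 119.8 after light. The smallest drop in the study was thus that of dark dCre E123 mice, whose VIP level was also the highest of any VIP group. E123 Cre mice held 703 ± 146 and 300.2 ± 89.6 CPM in the dark and 599 ± 49.4 and 329 ± 85.7 after light.

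Cacna1b, the N-type gene (chr2:24603887-24763152, minus strand), moved the other way. Total libraries held 111 to 432 CPM with a median of 185, and VIP libraries 166 to 728 CPM with a median of 345. The difference was 0.91 ± 0.075 (log2), or 1.88-fold, with an edgeR adjusted p of 6.31e-19. VIP means were higher in all 12 conditions, by 0.53 in light Cre E23 to 1.31 in light dCre E123 mice, and all VIP libraries lay above all total libraries in 8 of them. In total and VIP nuclei, E1 dCre mice held 309.6 ± 71.2 and 581 ± 81.5 CPM in the dark and 180.4 ± 25.0 and 346 ± 103 after light. E1 Cre mice held 138 ± 22.7 and 298 ± 45.8 CPM in the dark and 159.8 ± 26.4 and 321 ± 52.0 after light. E23 dCre mice held 158 ± 36 and 304 ± 102 CPM in the dark and 164 ± 31.4 and 273 ± 15.5 after light. The lowest VIP mean, that of light dCre E23 mice, was still above 10 of the 12 total means. E23 Cre mice held 179 ± 46.8 and 373 ± 137 CPM in the dark and 205 ± 49.2 and 295 ± 108 after light. E123 dCre mice held 343 ± 101 and 581 ± 144 CPM in the dark and 208 ± 33.6 and 517 ± 92.4 after light. E123 Cre mice held 204 ± 60.7 and 332 ± 112 CPM in the dark and 173 ± 46.5 and 323 ± 105 after light.

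Cacna1a, the P/Q-type gene (chr8:84388440-84640246, plus strand), was the other member that was lower in VIP nuclei, with wide overlap. Total libraries held 94.6 to 647 CPM with a median of 199.8, and VIP libraries 46.0 to 578 CPM with a median of 150.4. The difference was −0.34 ± 0.12 (log2; edgeR adjusted p = 0.015). It was negative in 8 of 12 conditions and ran from −1.01 in dark Cre E1 to 0.24 in light dCre E1 mice. Group means ran from 144 (light dCre E1) to 445 CPM (dark dCre E1) in total nuclei and from 79.0 (dark Cre E1) to 409 CPM (dark dCre E123) in VIP nuclei. The call was lost without replicates 1 and 2 of dark dCre E1, whose length index was high (−0.23, adjusted p = 0.186). An antisense gene, Gm16183, shares exons with Cacna1a on the other strand, and the library chemistry does not mark strand, so reads where they meet cannot be told apart; Gm16183 itself averaged 9.17 CPM in VIP and 12.4 in total nuclei.

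The L-type genes were both higher in VIP nuclei. Cacna1d (chr14:30039939-30491455, minus strand) held 134 to 605 CPM with a median of 268 in total libraries and 193 to 862 CPM with a median of 420.3 in VIP libraries. Its difference was 0.64 ± 0.081 (log2; edgeR adjusted p = 1.21e-10), with the VIP mean higher in all 12 conditions and no overlap in 3. The difference ran from 0.34 in dark dCre E123 to 0.88 in dark dCre E23 mice, the narrowest span of the 8 members. Group means of Cacna1d ran from 212 (light dCre E23) to 498 CPM (dark dCre E123) in total nuclei and from 285 (light dCre E23) to 686 CPM (dark dCre E1) in VIP nuclei. Chdh, on the other strand with touching exons, averaged 9.50 CPM in VIP and 9.53 in total nuclei.

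Cacna1c (chr6:118587240-119196418, minus strand) is the other L-type gene and had the smallest of the 5 rises. Total libraries held 303 to 1361 CPM with a median of 563, and VIP libraries 318 to 2028 CPM with a median of 684, so the fractions overlapped over most of their range. The difference was 0.30 ± 0.087 (log2; edgeR adjusted p = 0.00298), positive in 9 of 12 conditions, from −0.19 in light dCre E23 to 0.73 in dark dCre E23 mice. With the length index as a covariate it was 0.18 (adjusted p = 0.00507). Group means of Cacna1c ran from 417 (dark dCre E23) to 1045 CPM (dark dCre E123) in total nuclei and from 441 (light dCre E23) to 1485 CPM (dark dCre E1) in VIP nuclei.

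Among the T-type genes, Cacna1h (chr17:25374285-25433783, minus strand) had the largest rise of all 8 members. Total libraries held 4.37 to 62.3 CPM with a median of 23.6, and VIP libraries 14.9 to 208 CPM with a median of 54.1. In 21 of 48 VIP libraries Cacna1h was above every total library. The difference was 1.30 ± 0.15 (log2), or 2.46-fold, with an edgeR adjusted p of 2.02e-12. It was positive in all 12 conditions, but its size ran from 0.27 in light dCre E23 to 2.11 in dark dCre E23 mice, and the groups did not overlap in 3. Group means ran from 14.5 (dark dCre E23) to 44.3 CPM (light dCre E123) in total nuclei and from 28.5 (light dCre E23) to 125 CPM (dark dCre E1) in VIP nuclei. Tpsg1, on the other strand with touching exons, averaged 3.17 CPM in VIP and 1.23 in total nuclei.

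Cacna1g (chr11:94408391-94474198, minus strand), a T-type gene with high expression in thalamic relay cells, also rose. Total libraries held 9.63 to 72.7 CPM with a median of 23.3, and VIP libraries 11.3 to 117 CPM with a median of 40.2. The difference was 0.73 ± 0.12 (log2; edgeR adjusted p = 2.36e-07), positive in all 12 conditions, from 0.079 in light Cre E123 to 1.22 in dark dCre E23 mice. The groups overlapped in 11 of the 12. Group means of Cacna1g ran from 18.3 (dark Cre E123) to 46.2 CPM (dark dCre E1) in total nuclei and from 29.8 (light Cre E23) to 92.1 CPM (dark dCre E1) in VIP nuclei.

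Cacna1i (chr15:80287238-80398279, plus strand), the remaining T-type gene, did not pass the test. Total libraries held 7.0 to 84.0 CPM with a median of 20.3, and VIP libraries 2.80 to 69.2 CPM with a median of 17.5. The difference was −0.28 ± 0.16 (log2; edgeR adjusted p = 0.165). It was negative in 8 of 12 conditions and ran from −1.26 in light Cre E1 to 0.92 in light Cre E123 mice. Cacna1i rested on the fewest counts of the 8, with 10.0 to 397 counts per VIP library, where Cacna1c had 651 to 10770. With the length index as a covariate it was called lower (−0.38, edgeR adjusted p = 0.0248). A replicate block also called Cacna1i lower, as described at the end. Leaving out any 1 of the 48 numbered replicates changed none of the 7 calls and added none.

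**Figure D2:**
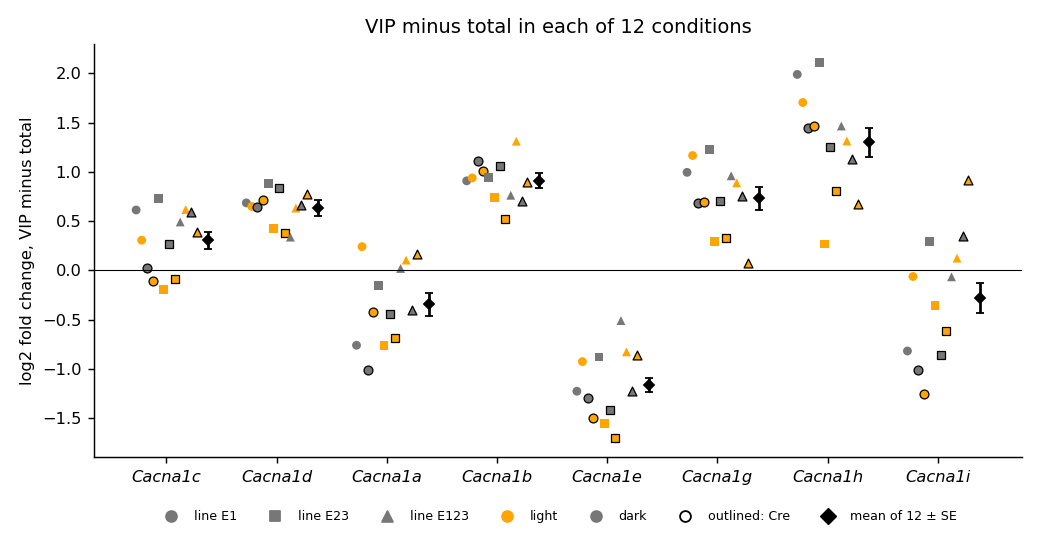
Fitted log2 difference between VIP and total nuclei for each gene in each of the 12 conditions, with the shape giving the line, the colour the light condition and an outline Cre; diamonds are the mean of 12 with its SE. Cacna1e lies below 0 in all 12 conditions, and Cacna1b, Cacna1d, Cacna1g and Cacna1h lie above 0 in all 12.

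The size of the VIP-total difference was compared between lines, viruses and light conditions. In the unpaired edgeR fit no member differed in it between E123 and E23, between E123 and E1, or between E23 and E1 at an adjusted p under 0.05. Of all genes 0.951%, 0.441% and 0.00872% did. At an unadjusted p under 0.05 the counts were 1, 2 and 0, and DESeq2 called 0 in each. A fit with a replicate block called 1, 1 and 0, as described at the end, though the labels do not pair the libraries. The nearest was Cacna1e, whose drop was smaller in E123 than in E23 by 0.53 ± 0.18 (adjusted p = 0.151). Cacna1i came next, 1.12 ± 0.38 higher in E123 than in E1 (adjusted p = 0.214). No member differed between Cre and dCre or between light and dark at an edgeR adjusted p under 0.05, where 0.0174% and 0.0872% of all genes did. At an unadjusted p under 0.05 the member counts were 1 and 0. The share of all genes at that threshold is not given here. DESeq2 called 0 in both. These tests do not show that the differences were equal.

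Levels of different genes are compared only per length. In CPM per kb of exon, Cacna1b (37.5 ± 13.7, SD, n = 48), Cacna1c (36.8 ± 19.5) and Cacna1d (35.3 ± 13.1) led in VIP nuclei. These 3 were not separated, since Cacna1b exceeded Cacna1c in 29 and Cacna1c exceeded Cacna1d in 22 of 48 libraries. Cacna1a (17.0 ± 11.3) was below Cacna1d in 46 of 48 libraries, and Cacna1e (12.8 ± 5.66) was below Cacna1a in 35. The T-type genes came last, with Cacna1h at 6.44 ± 4.13, Cacna1g at 4.38 ± 2.23 and Cacna1i at 2.27 ± 1.67. Each of these was above the next in 39 or more of 48 libraries. In total nuclei the same scale gave Cacna1c 29.1 ± 11.3, Cacna1e 27.6 ± 6.99, Cacna1d 22.8 ± 8.07, Cacna1a 20.4 ± 11.1 and Cacna1b 19.9 ± 7.30. Cacna1c exceeded Cacna1e there in 26 of 48 libraries and Cacna1a exceeded Cacna1b in 20, so neither pair was separated. Cacna1i, Cacna1g and Cacna1h stood at 2.69 ± 1.86, 2.57 ± 1.30 and 2.53 ± 1.33, and their order was not resolved.

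**Figure D3:**
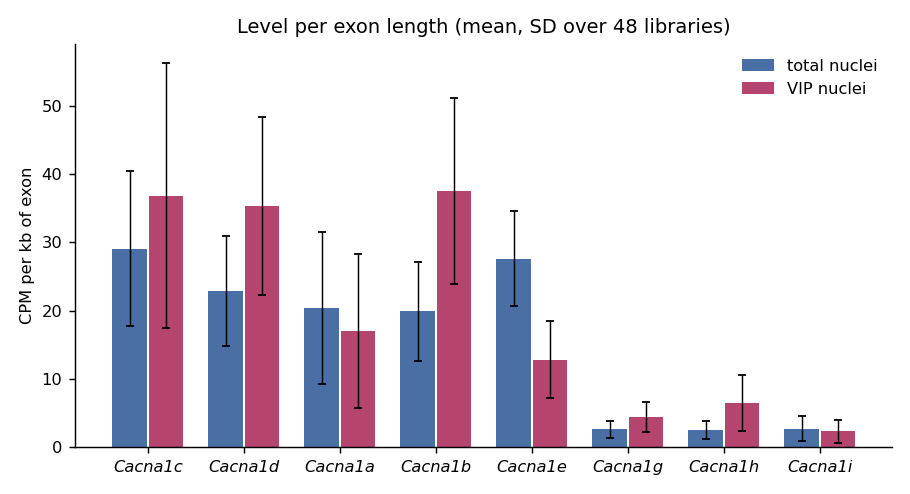
Level of each pore gene in CPM per kb of exon in total and VIP nuclei; bars are means and error bars SDs over 48 libraries. Cacna1e is higher in total nuclei (27.6 ± 6.99 against 12.8 ± 5.66) and Cacna1b in VIP nuclei (37.5 ± 13.7 against 19.9 ± 7.30).

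As shares of the summed level of the 8 genes per kb of exon, the L-type genes made up 47.2 ± 4.51% in VIP and 40.7 ± 2.83% in total nuclei. The P/Q-, N- and R-type genes made up 44.3 ± 4.26% and 53.3 ± 2.68%, and the T-type genes 8.46 ± 2.56% and 5.96 ± 1.40%. Within the second family the makeup changed most, with Cacna1b at 25.2 ± 3.62% in VIP against 15.7 ± 2.47% in total nuclei and Cacna1e at 8.58 ± 1.96% against 22.3 ± 2.92%. Cacna1e ran from 5.04% to 12.2% over VIP libraries and from 15.6% to 27.9% over total libraries, without overlap. Which parts of a gene were counted is not given in the sources used here, and nuclear RNA holds much unspliced transcript. Per kb of whole gene, the VIP order began with Cacna1b (2.34 ± 0.854 CPM per kb), Cacna1c (1.28 ± 0.677) and Cacna1h (1.06 ± 0.678). Below them stood Cacna1d (0.986 ± 0.366), Cacna1a (0.772 ± 0.513), Cacna1g (0.674 ± 0.344), Cacna1e (0.653 ± 0.289) and Cacna1i (0.202 ± 0.149). There Cacna1h exceeded Cacna1d in 23 of 48 libraries and Cacna1g exceeded Cacna1e in 25, so neither pair was separated. The total order began with Cacna1e (1.41 ± 0.357), Cacna1b (1.24 ± 0.456) and Cacna1c (1.01 ± 0.395). The family shares above hold per kb of exon only and were not computed per kb of whole gene.

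The partners of the pore proteins were described from fixed lists of 48 genes, of which 47 were tested. Of these, 12 were higher and 17 lower in VIP nuclei, with a median difference of −0.16. Of all genes tested, 14.8% were higher and 20.7% lower, with a median of −0.11. The counts by list stand beside these same shares. Among the beta subunits, which bring the pore to the membrane, the count was 1 higher and 2 lower of 4 tested: Cacnb2 was higher (0.57 ± 0.077), and Cacnb4 (−0.71 ± 0.076) and Cacnb3 (−0.48 ± 0.11) lower. The alpha2delta group, which raises surface expression, had 2 higher and 1 lower of 5 tested. Cacna2d3 (0.79 ± 0.074) and Cachd1 (0.69 ± 0.17) were higher, and Cacna2d1, a gabapentin target, was lower (−1.13 ± 0.084). Of the gamma genes, 4 were higher and 1 lower of 8 tested. Cacng5 (3.72 ± 0.22) and Cacng4 (3.06 ± 0.27) differed most, Cacng2 (0.78 ± 0.11) and Cacng7 (0.54 ± 0.16) less, and Cacng3 was lower (−0.83 ± 0.081). Most gamma proteins of the brain are known as partners of AMPA receptors rather than of calcium channels. The other pore genes Cacna1f, of the retina, and Cacna1s, of skeletal muscle, averaged 1.44 and 1.02 CPM in VIP nuclei and passed no test.

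Of the RGK proteins, small GTPases that inhibit these channels, 3 of 4 were tested and Rem2 was lower (−1.32 ± 0.42). Presynaptic partners counted 4 higher and 5 lower of 15 tested, where 14.8% of all genes were higher and 20.7% lower. Unc13b (−1.43 ± 0.12), Stx1a (−1.11 ± 0.090), Snap25 (−0.55 ± 0.055) and Rimbp2 (−0.95 ± 0.11), which act in vesicle priming and fusion or tether channels at the active zone, were lower. Rims2, an active-zone scaffold, was higher (0.48 ± 0.067), and Erc2, another, was lower (−0.43 ± 0.066). Calcium sensors and calcium-activated enzymes counted 1 higher and 7 lower of 10 tested. Ppp3ca, a calcineurin subunit, was lower (−1.08 ± 0.064), as were the kinase genes Camk4 (−0.68 ± 0.077) and Camk2g (−0.30 ± 0.074), the sensor Cabp1 (−0.66 ± 0.14) and the calmodulin gene Calm2 (−0.44 ± 0.11). Camk2d, another kinase gene, was higher (0.99 ± 0.077). All these values are log2 differences ± SE in the same fit.

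In dCre VIP nuclei 2 of the 8 genes were lower after light, the L-type genes Cacna1c and Cacna1d, where 2.3% of the 20585 genes tested were lower. Over the 3 lines Cacna1c stood at 709 ± 316 CPM after light (n = 13) and 1190.3 ± 562 in the dark (n = 11), a difference of −0.76 ± 0.18 (log2; edgeR adjusted p = 0.00964). Cacna1d stood at 379 ± 118 and 578 ± 198, a difference of −0.61 ± 0.17 (adjusted p = 0.0253). The other 6 lay between −0.33 (Cacna1b) and −0.70 (Cacna1i) and did not pass. The median of the 8 was −0.54 and that of all genes 0.012. Both calls were lost without 2 dark dCre libraries of E1, and the index of long against short genes moved with them.

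By library, Cacna1c in dark dCre VIP nuclei held 1985, 1394 and 1077 CPM in E1, and after light 824, 331, 502, 676 and 692. In E23 it held 1126, 709.6, 573 and 356 in the dark and 406, 371, 489.8 and 498 after light. In E123 it held 2028, 1812, 1103 and 929 in the dark and 1129.6, 928, 1297 and 1069 after light. All light libraries were below all dark ones in E1, and the groups overlapped in E23 and E123. In E1 alone the difference was −1.21 ± 0.31 (edgeR adjusted p = 0.0208), where 1.5% of genes were lower, and Cacna1c was the only member called; with the length index as a covariate it was −0.23 (adjusted p = 0.819). Cacna1d held 862, 728 and 467 CPM in the dark and 579, 221, 339.8, 405 and 343 after light in E1. It held 652, 376, 446 and 312 in the dark and 193, 242, 374 and 329 after light in E23, and 786, 819.8, 522 and 389 and 414, 495, 516 and 474 in E123. Dark and light libraries of Cacna1d overlapped in every line.

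The 4 VIP libraries with the highest length index were replicates 1 and 2 of dark dCre E1 (4.42 and 4.39) and of dark dCre E123 (4.38 and 4.38). They also held the 4 highest Cacna1c levels of the 48. All 4 are labelled female, as is replicate 4 of dark dCre E123, whose index was 3.03. With sex as a covariate 2 members were called lower after light. Without the E1 pair the light difference was −0.63 for Cacna1c (edgeR adjusted p = 0.168) and −0.46 for Cacna1d (0.345), with 1 dark dCre E1 library left. Without all 4 it was −0.46 and −0.30, and neither passed. With the index as a covariate it was −0.13 (0.856) and −0.012, and neither passed. In that fit 143 of the 20585 genes tested passed, against 1290 in the full fit. Leaving out 1 replicate at a time, Cacna1c passed in 48 and Cacna1d in 44 of 48 refits; Cacna1d was lost without dark dCre replicate 1 of E1, E23 or E123 or replicate 2 of E123. Summed oligodendrocyte markers were also higher after light, at 196 ± 112 against 80.5 ± 37.3 CPM in E1, 608 ± 700.2 against 201 ± 109 in E23 and 256 ± 157 against 85.3 ± 12.4 in E123, and 1 of 4, Mbp, passed the test. Of the excitatory markers 1 of 5 was higher after light and of the GABAergic ones 3 of 5. Of the VIP ones 3 of 8 were higher and of the Pvalb and Sst group 2 of 3, with none lower. Of all genes 3.97% were higher. No astrocyte, microglial or vascular marker passed. The part of the markers in the result was not tested.

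**Figure D4:**
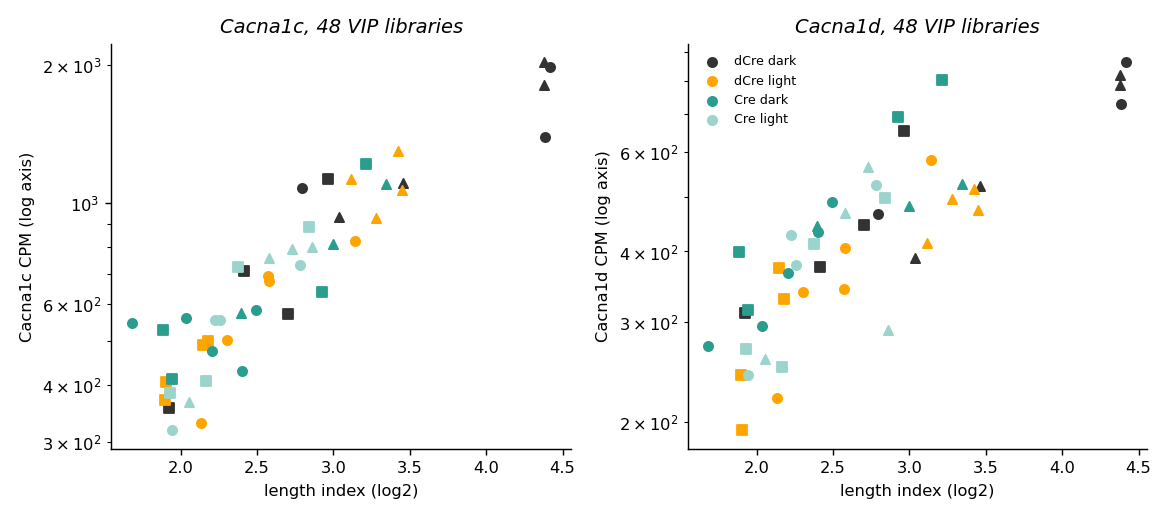
Level of Cacna1c and Cacna1d (CPM, log axis) against the length index in the 48 VIP libraries; colours give virus and light, circles E1, squares E23 and triangles E123. The 4 dark dCre libraries with an index of 4.38 to 4.42 lie at the far right and hold the 4 highest Cacna1c levels.

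Some partners also moved in dCre VIP nuclei after light, 6 of 47 higher and 2 lower, in the same comparison and beside the same index, where 3.97% of all genes were higher and 2.3% lower. Calm2 (0.87 ± 0.23), Snap25 (0.63 ± 0.13) and Stx1a (0.79 ± 0.22) were among those higher. Rimbp2 (−1.11 ± 0.25) and Rims2 (−0.48 ± 0.14) were lower. Gem, an RGK gene that activity is known to induce, averaged 1.46 ± 2.82 CPM after light and had no count in any of the 11 dark libraries (edgeR adjusted p = 0.0341).

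In Cre VIP nuclei no member passed edgeR's test after light, where 0.35% of genes did; the count was 0 also at an unadjusted p under 0.05 and in DESeq2. Cacna1c stood at 607 ± 199 CPM after light and 656 ± 258 in the dark (n = 12 each), a difference of −0.14 ± 0.18. Cacna1d differed by −0.28 ± 0.17, and the largest value was that of Cacna1a, 0.47 ± 0.24 (adjusted p = 0.564). The light difference with Cre minus that with dCre was not called for any member, where 0.00486% of all genes passed at an edgeR adjusted p under 0.05. At an unadjusted p under 0.05 the member count was 2, and the share of all genes at that threshold is not given here. DESeq2 called 0. For Cacna1c the light difference with Cre minus that with dCre was 0.61 ± 0.26 (edgeR adjusted p = 0.47). No light effect on a member is therefore shown to depend on Cre.

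In total nuclei of dCre mice, Cacna1b and Cacna1d were lower after light, 2 of 8, where 2.27% of the 21213 genes tested were lower. Cacna1d averaged 252 ± 54.9 CPM after light (n = 13) and 386 ± 151 in the dark (n = 11), a difference of −0.57 ± 0.14 (edgeR adjusted p = 0.00733). Cacna1b averaged 184 ± 32.9 and 266 ± 109.8, a difference of −0.48 ± 0.13 (adjusted p = 0.023). By library, dark dCre total nuclei held 460.5, 563 and 256 CPM of Cacna1d in E1 and 605, 513, 430.02 and 445 in E123, and light ones 281, 257, 234, 203 and 230.4 and 287, 238, 397 and 304. In E23 the dark libraries held 309.98, 307, 217 and 134 and the light ones 227, 193, 206 and 223. The high dark values again belonged to the libraries with a high index, 3.87 and 3.97 in E1 and 4.29 and 3.93 in E123. Averaged over the lines, Cacna1h alone of the 8 had a fitted value above 0 (0.059 ± 0.28). In E23 alone 6 of the 8 were above 0 and none was called. The median there was 0.22, and that of all genes −0.018. Cacna1e in E23 held 641 to 797 CPM after light and 457 to 555 in the dark, without overlap. In E1 alone 5 members were lower, Cacna1a (−1.60 ± 0.34), Cacna1c, Cacna1d, Cacna1e and Cacna1i, where 1.47% of genes were. With the index as a covariate none of those 5 was called, and Cacna1a was −0.14.

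Markers also differed in this comparison. Slc17a7 (0.46) and Crh (2.51) were higher after light and Adarb2 (−1.38) was lower, 1 of 5 excitatory and 2 of 8 VIP markers. Of all genes 3.42% were higher and 2.27% lower. No other marker passed. Summed oligodendrocyte markers stood at 544 ± 493 CPM in the dark and 1467 ± 714 after light in E1, 1796 ± 1073 and 517 ± 169 in E23, and 578 ± 227 and 1069 ± 604 in E123. Summed astrocyte markers in E1 stood at 41.5 ± 14.6 and 124 ± 62.0. The part of the markers in the calls was not tested.

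None of the light calls in total nuclei was made without replicates 1 and 2 of dark dCre E1. Cacna1b was then −0.36 (edgeR adjusted p = 0.37) and Cacna1d −0.35 (0.377). With the index as a covariate they were −0.15 (0.673) and −0.23 (0.457). In that fit 422 of the 21213 genes tested passed, against 1207 in the full fit. Leaving out replicate 1 or 2 of dark dCre E1 or E123, 1 at a time, ended the call of Cacna1b. Without replicate 3 of dark dCre E1 the count was 5, and without replicate 4 of dark dCre E123 it was 4. In total nuclei of Cre mice no member passed after light (0 at an unadjusted p under 0.05, 0 in DESeq2), where 1.49% of genes were called. Values ran from −0.18 for Cacna1d to 0.35 for Cacna1g. The light difference was not called as different between VIP and total nuclei for any member, with dCre (0% of all genes) or with Cre (0.00872%); both had 0 members at an unadjusted p under 0.05 and 0 in DESeq2. Of the partners in dCre total nuclei 4 were higher and 4 lower of 46 tested, where 3.42% and 2.27% of all genes were: Snap25 (0.47 ± 0.11) and Calm2 (0.70 ± 0.21) were among those higher and Cask (−0.49 ± 0.12), Camk2g (−0.42 ± 0.11), Pclo (−0.46 ± 0.13) and Rims2 (−0.41 ± 0.12) lower. In Cre total nuclei 4 were higher, where 1.09% of all genes were, with Stx1a (0.55 ± 0.14), Camk2a (0.37 ± 0.10) and Cabp1 (0.82 ± 0.22) among them.

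**Figure D5:**
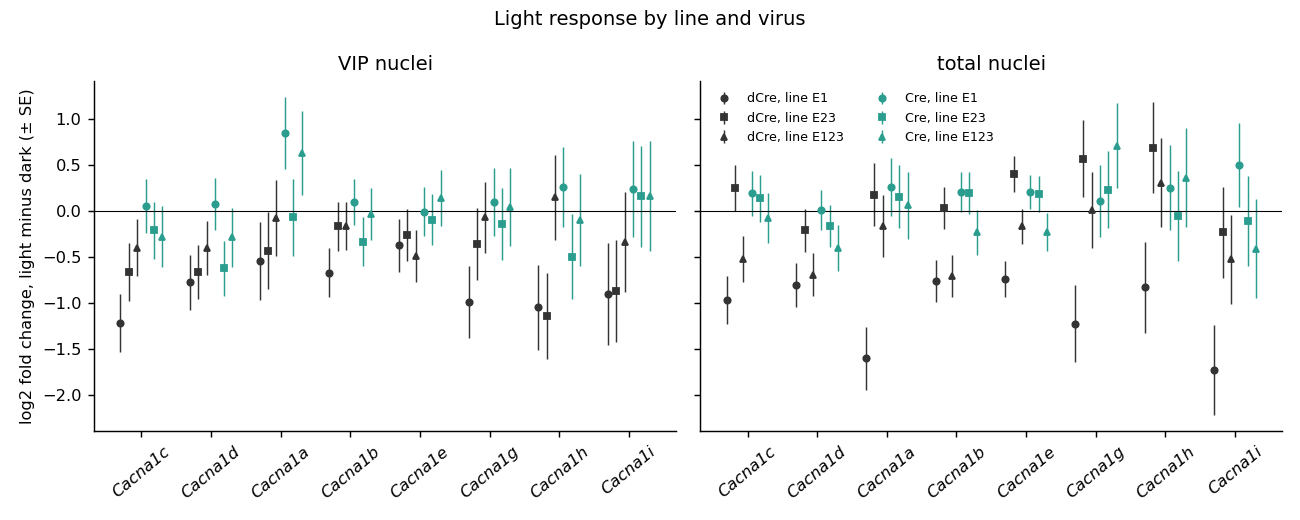
Fitted log2 difference between light and dark (± SE) for each gene in VIP nuclei (left) and total nuclei (right), by virus (colour) and line (shape). In total nuclei dCre E1 has the lowest value for all 8 genes, down to −1.73 for Cacna1i, and in VIP nuclei it has −1.21 for Cacna1c.

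Cre against dCre asks whether losing the Igf1 enhancers in VIP cells altered the pore genes, and it shares its dark dCre libraries with the light comparison. In VIP nuclei 4 of the 8 were lower with Cre, Cacna1g, Cacna1e, Cacna1a and Cacna1c, where 1.43% of genes were lower. The lines differed in the median of the 8 members. It was −1.37 in the dark and −0.20 after light in E1, and −1.03 and −0.67 in E123. In E23 it was −0.056 in the dark and 0.22 after light, where 7 of the 8 were above 0. Medians of all genes ran from −0.027 to 0.12 over these conditions. Cacna1g averaged 32.5 ± 12.0 CPM with Cre and 56.3 ± 24.6 with dCre (n = 24 each), a difference of −0.74 ± 0.16 (log2; edgeR adjusted p = 0.0166). Cacna1e averaged 262 ± 69.0 and 382 ± 171 (−0.46 ± 0.12, adjusted p = 0.0236). Cacna1a averaged 147 ± 80.0 and 242 ± 152 (−0.59 ± 0.17, adjusted p = 0.0438), and Cacna1c 632 ± 227 and 929 ± 499.7 (−0.44 ± 0.13, adjusted p = 0.0438). Cacna1i (−0.74 ± 0.23, adjusted p = 0.0509), Cacna1b (−0.34 ± 0.11, 0.0623) and Cacna1h (−0.55 ± 0.19, 0.0824) did not pass, nor did Cacna1d (−0.12 ± 0.12).

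How far these calls rested on single libraries differed between the 4 genes. With Cre the mean was lower in 6 of 6 line and light conditions for Cacna1g and in 5 for Cacna1e. It was lower in 4 each for Cacna1a and Cacna1c. In dark dCre E1 VIP nuclei Cacna1c held 1985, 1394 and 1077 CPM, and with Cre 429, 584, 559, 546 and 475. Cacna1a held 288, 308 and 192 with dCre and 114, 110.2, 56.3, 59.5 and 55.5 with Cre, and Cacna1g 117, 98.6 and 61.1 and 26.7, 25.1, 43.9, 38.8 and 30.6. Those groups did not overlap for any of the 3, whose values come from the same libraries. The share of all genes without overlap there was not computed. Replicates 1 and 2 of the dCre libraries had a length index of 4.42 and 4.39. In that condition Cacna1a (−1.63 ± 0.42), Cacna1c (−1.41 ± 0.31), Cacna1g (−1.37 ± 0.39) and Cacna1b (−0.86 ± 0.27) were lower, where 4.09% of genes were. Without replicates 1 and 2 of dark dCre E1, 1 library was left in that group and none of the 4 average calls was made. The median of the 8 members was then −0.42, where it was −0.51 in the full fit, and Cacna1g was −0.65. With the index as a covariate Cacna1g was −0.62, Cacna1e −0.16, Cacna1a −0.13 and Cacna1c −0.011, and none passed. In that fit 0 of all 20585 genes tested passed, against 769 in the full fit. Leaving out 1 replicate at a time gave 7 calls without E1 dCre dark replicate 3, E23 Cre dark replicate 1 or E23 dCre dark replicate 4, and 1 without E1 dCre dark replicate 2 or E123 Cre dark replicate 3. It gave 2 in 19 further refits, those without E1 Cre dark 4 or 5 or light 2 or 4, E1 dCre dark 1 or light 1 or 4, E123 Cre dark 2 or light 3, E123 dCre dark 1 or 2 or light 4, E23 Cre dark 2 or 3 or light 3 or 4, or E23 dCre dark 1 or 2 or light 3. Cacna1g passed in 48, Cacna1e in 46, Cacna1c in 22 and Cacna1a in 21 of 48 refits. Beside these calls, 3 of 5 GABAergic markers were higher with Cre. Of the 8 VIP markers 2 were higher, Vip by 0.83, and 1 was lower, Igf1 (−0.61). Of all genes 2.31% were higher and 1.43% lower. No excitatory, oligodendrocyte, astrocyte, microglial or vascular marker passed, and the part of the markers was not tested. Of the 47 partners 2 were higher and 5 lower with Cre, where 2.31% and 1.43% of all genes were. Cacng5 (0.60 ± 0.13) was among those higher and Cacna2d1 (−0.50 ± 0.13), Camk4 (−0.47 ± 0.12), Cacnb4 (−0.45 ± 0.12), Cacng3 (−0.50 ± 0.14) and Cacng2 (−0.45 ± 0.13) lower.

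In total nuclei no member passed between Cre and dCre by edgeR at an adjusted p under 0.05, where 0.0283% of genes did. At an unadjusted p under 0.05 the member count was 5, and the share of all genes at that threshold is not given here. DESeq2 called 0. Fitted values ran from −0.13 for Cacna1e to −0.49 for Cacna1i. In dark E1 total nuclei alone 5 members were lower with Cre, where 1.28% of genes were: Cacna1a (−1.46 ± 0.34), Cacna1b (−1.15 ± 0.23), Cacna1c (−0.91 ± 0.26), Cacna1d (−0.83 ± 0.24) and Cacna1e (−0.82 ± 0.20). The length index in that pair of groups was 3.43 ± 0.85 with dCre (n = 3) and 2.19 ± 0.18 with Cre (n = 5). Cacna1b held 368, 329.9 and 230.4 CPM in the dCre libraries and 135, 120.1, 141, 175 and 119 in the Cre ones, without overlap. Cacna1e held 1231, 1243 and 626 and 488, 604, 610.5, 663 and 534, with overlap. With the index as a covariate no member was called there, and Cacna1b was −0.50 and Cacna1e −0.16. Across the 3 lines, the only refit that left out 1 replicate and made 2 calls was the one without E1 dCre dark replicate 3.

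Which genes varied most like each member was described over the 48 VIP libraries, after group means were taken off, by Pearson's r of log2(CPM + 1) among 14675 protein-coding genes. The libraries differ in depth and in the length index, which move many genes together, and r is given as a description. Cacna1c had the highest values, with Gm20696 (0.92), Ank3 (0.92) and Agap1 (0.92). Cacna1d was most like Grin2b (0.89), Asic2 (0.89) and Ctif (0.89), the first of which encodes an NMDA receptor subunit. Cacna1b was most like Frmd4a (0.87), Sdk2 (0.86) and Cacna1c (0.85), and Cacna1a like Atxn1 (0.86), Prickle1 (0.84) and Rora (0.83). Cacna1e was most like Mast4 (0.81), Cacna2d1 (0.79) and Cacnb4 (0.78), so that 2 of its 3 are channel subunit genes. The best matches of the T-type genes were lower than those of the other members, Wscd2 (0.79), B3gat1 (0.76) and Rbfox3 (0.76) for Cacna1h, Abr (0.79) and Gfod1 (0.76) for Cacna1i and Ptprf (0.67), Cul9 (0.63) and Zdhhc8 (0.63) for Cacna1g. Between members, r was highest for Cacna1b with Cacna1c (0.85) and Cacna1c with Cacna1d (0.81), and lowest for Cacna1d with Cacna1g (0.086).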

How the data were processed

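Per the labels' protocols, nuclear RNA was amplified with 17 PCR cycles and no molecular identifiers are described, so copies of a molecule were not told apart. The deposited table holds whole-number counts per gene on mm10; cutadapt 1.18, STAR 2.5.3a and HOMER 4.9.1 are named in the submitters' processing notes, and the parts of a gene that were counted and the strand setting are not given in the sources used here. Of the 55335 identifiers 55154 matched GENCODE by ID, and the 181 others held 0.0225% of counts. The counts were tested with edgeR 4.0.16 (R 4.3.3, limma 3.58.1; TMM sizes, filterByExpr, robust quasi-likelihood F test, 1 coefficient per group, Benjamini-Hochberg over all genes tested, threshold 0.05), in 1 fit of 96 libraries for VIP against total nuclei and 1 of 48 for each fraction. The procedure was also run on simulated counts, drawn gene by gene without a length index, and the outcome is not reported here. That run cannot bear on calls that move with the index. Log2 values are fitted differences averaged over lines; CPM use TMM sizes of all libraries, and 1 was added before logs in the length index and correlations. Library totals of 1559883 to 9122515 counts set the precision. Alternatives were DESeq2 1.42.0, RLE sizes, total counts, no filter, sex, the length index, a replicate block, and leaving out libraries. Refits without 1 numbered replicate kept the genes and trended dispersions of the full fit. They estimated library sizes, coefficients and the quasi-likelihood spread anew. All 8 members are named in every comparison. Partners are named from fixed lists, up to 6 called genes per list with the smallest p, and for each member the 3 most similar protein-coding genes; a few genes that this rule names are not reported here. Members and lists were chosen with earlier results of these data known. Sequences are RefSeq's (GRCm38.p6); 5 of 8 members matched. No libraries had identical values.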

Additional observations from a re-analysis of the deposited data

Results flagged for a closer look

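In 10 of 160 sets of 4 or 5 libraries, 1 library stood further from the rest than Dixon's critical value allows, and chance flags about 1 in 20. A single library, replicate 3 of light Cre VIP nuclei of E123, was low for both Cacna1b (166 CPM, where the others of its group held 361 to 384) and Cacna1c (368 CPM, where the others of its group held 759 to 802). In light dCre VIP nuclei of E1, replicate 1 was high for Cacna1a (361 CPM, where the others of its group held 103 to 151). In dark dCre VIP nuclei of E123, replicate 2 was high for Cacna1e (822 CPM, where the others of its group held 514 to 562) and replicate 1 for Cacna1h (162 CPM, where the others of its group held 75.9 to 81.8), and these are the 2 libraries of that group with a high length index. In light dCre VIP nuclei of E23, replicate 1 was high for Cacna1g (48.5 CPM, where the others of its group held 28.6 to 31.4).

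Among total nuclei, replicate 3 of light dCre E23 was high for Cacna1e (797 CPM, where the others of its group held 641 to 664) and replicate 4 of light Cre E23 was low for Cacna1g (18.0 CPM, where the others of its group held 25.6 to 26.7). Cacna1i was high in replicate 4 of dark Cre E1 (39.4 CPM, where the others of its group held 12.3 to 18.3) and in replicate 3 of light Cre E23 (46.4 CPM, where the others of its group held 13.1 to 17.2).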

How the results depend on the processing

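The VIP against total calls kept their direction under every alternative, with 7 or 8 called, except that Cacna1a was lost without the dark dCre libraries and Cacna1c on total counts (6 and 7 called). Adding the length index left 0 member calls for light in dCre VIP nuclei, light in dCre total nuclei and Cre in VIP nuclei. Calls among all genes also fell, from 1290 to 143, 1207 to 422 and 769 to 0. Leaving out replicates 1 and 2 of dark dCre E1, or those and the E123 pair, left 1 library in the E1 group. No member call stood then in these 3 comparisons. The member medians were −0.29, −0.052 and −0.42 without the E1 pair, and −0.21, 0.076 and −0.37 without both pairs. Light calls in dCre total nuclei numbered 5 with no filter and 4 in DESeq2. Cre calls in VIP nuclei numbered 2 on total counts and 6 in DESeq2, with RLE sizes or with no filter. With 1 replicate left out, counts ran from 1 to 3 for light in dCre VIP nuclei, 1 to 5 in dCre total nuclei, 1 to 7 for Cre in VIP nuclei and 0 to 2 for Cre in total nuclei. The cause of these shifts was not tested.

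Several uncalled values changed sign. With the length index, the light difference in dCre VIP nuclei was 0.32 for Cacna1a, 0.10 for Cacna1b and 0.046 for Cacna1e, and Cre in VIP nuclei gave 0.31 for Cacna1d. In dCre total nuclei, light gave 0.19, 0.067, 0.15 and 0.25 for Cacna1a, Cacna1c, Cacna1e and Cacna1g, 0.25, 0.016, 0.14 and 0.35 without the 4 dark libraries, and 0.039, 0.052 and 0.25 for Cacna1a, Cacna1e and Cacna1g without the E1 pair. Without the 4, Cre gave 0.038 for Cacna1d in VIP nuclei, and 0.035, 0.010 and 0.021 for Cacna1a, Cacna1c and Cacna1e in total nuclei, where the index gave 0.0038 for Cacna1c and 0.0062 for Cacna1e. The light value of Cacna1g in Cre VIP nuclei, near 0, was −0.0041 without the E1 pair, −0.0022 with sex, −0.0064 with no filter, −0.0012 with RLE and −0.0013 in DESeq2. Cacna1i in Cre total nuclei was 0.047 with sex and 0.16 with the index. With 1 replicate left out, Cre VIP light values ran from −0.088 to 0.18 for Cacna1g, −0.080 to 0.072 for Cacna1e, −0.0047 to 0.39 for Cacna1i and −0.17 to 0.0028 for Cacna1b. Those of Cre total nuclei ran from −0.21 to 0.16 for Cacna1i, −0.017 to 0.14 for Cacna1c and −0.0024 to 0.14 for Cacna1b, and Cacna1h in dCre total nuclei from −0.052 to 0.18.

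Same-numbered VIP and total libraries correlated in their deviations by −0.045 to 0.37 (median 0.067), above 0.1 in 19 of 48. The labels do not tie them to 1 animal and not every pair exceeded 0.1, so the fits leave them unpaired. That 31 of 48 correlated best with their own number and 48 of 48 share the labelled sex is a hint of pairing from the data, not from the design. In the fit of all libraries, a block of same-numbered VIP and total libraries called Cacna1i lower in VIP nuclei (5 higher and 3 lower, edgeR adjusted p = 0.0477). It made 2 calls among the differences between effects, Cacna1i between E123 and E1 (0.0446) and Cacna1e between E123 and E23 (0.047). The fit of each fraction used another block, of same-numbered libraries of 1 line across virus and light. The labels do not tie those either, and their deviations correlated by a median of −0.0025 (light and dark) and 0.023 (Cre and dCre). That block called Cacna1b lower with Cre in VIP nuclei (5 calls, edgeR adjusted p = 0.0293). Neither block changed another call of a member. Depth limits Cacna1i, Cacna1g and Cacna1h most.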
